A study of Mus musculus with 10 samples.

Results

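The 8 genes described here, Upp1, Rims1, Smtnl1, Gtsf1l, Khdc3, Spic, H2-Eb1 and Slc4a5, were picked by their mRNA levels in these data, as genes with over 20 CPM (counts scaled to a common library size) in wild-type mouse embryonic stem cells (ESCs) that were nearly lost in DDX6 knockout cells. They are 8 of 51467 genes listed in the count table and 8 of the 11683 genes that reached 3 CPM in at least 3 libraries and were tested. Messenger RNA was counted by QuantSeq, which reads transcripts from their poly(A) end, in 10 libraries. All were mouse ESCs grown in serum, LIF and the 2 inhibitors PD0325901 and CHIR99021. The groups were wild-type V6.5 cells (WT, 3 libraries), 1 existing Dgcr8 knockout line (DGCR8 KO, 3 libraries) and Ddx6 knockout cells from 2 CRISPR clones with 2 libraries each (DDX6 KO, 4 libraries). The clones carry different lesions in Ddx6 that end in an early stop, so some of its transcript can remain, and the Dgcr8 knockout line had been made earlier. Nothing in the labels says that libraries of a group came from separate cultures, so p-values measure the spread between these libraries, which may be technical. Libraries held between 2131156 and 4745083 counts in genes, and 3 counts, taken as the floor, stood for 0.665 to 1.43 CPM.

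DDX6 is an RNA helicase of P-bodies that joins the miRNA effector complex to decapping and translational repression, and DGCR8 is the partner of Drosha that most miRNAs need for their processing. The 8 genes belong to no single pathway. Upp1 encodes uridine phosphorylase of pyrimidine salvage, Rims1 a scaffold of the presynaptic active zone, Smtnl1 a smoothelin-like muscle protein phosphorylated by cyclic nucleotide-dependent kinases, and Slc4a5 a sodium bicarbonate cotransporter. Gtsf1l is a paralog of the piRNA factor Gtsf1, Khdc3 (Filia) is a KH-domain protein of the oocyte subcortical maternal complex and of ESCs, Spic is an ETS factor of the PU.1 subfamily known from red pulp macrophages and naive ESCs, and H2-Eb1 is the beta chain of the class II molecule I-E, usually controlled by CIITA, RFX and NF-Y.

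The rule chose the members in the contrast of DDX6 KO with WT, so their values there are a description. Of 6680 genes over 20 CPM in WT, the members took places 1 to 6, 9 and 10 by the share of the WT mean left in DDX6 KO cells. Spic was the last inside at 13.2%. Acaa2 (11.75%) and Dnah8 (12.05%) lay between them without being members, and Cidea (13.35%) and Pcdh19 (14.1%) lay just outside. Among all genes tested, 3.66% were called lower in DDX6 KO cells (limma adjusted p under 0.05 and a log2 fold change beyond 1), and 19.4% had no overlap with WT in that direction.

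Both targeted transcripts were checked first. In WT, Ddx6 had 535.6 ± 42.1 CPM (SD, n = 3). It had 495.8 CPM in DGCR8 KO cells, and DDX6 KO cells kept 86.8 ± 63.5 (SD, n = 4). Clone 1 kept 141.3 CPM of Ddx6 on average and clone 2 kept 32.2. Dgcr8 fell from 55.8 CPM in WT to 11.5 in DGCR8 KO cells, 20.6% of the WT level. All 10 pluripotent stem cell markers passed the filter, and their summed level was 4635 to 4996 CPM in WT, 4622 to 5002 in DGCR8 KO and 5128 to 5353 in DDX6 KO libraries. Single markers moved both ways, with 6 lower and 2 higher in DGCR8 KO cells, against 2 lower and 3 higher in DDX6 KO cells (limma adjusted p under 0.05). Dppa3 (Stella), an oocyte and naive ESC gene, fell from 14.2 CPM in WT to 23.2% of that level in DGCR8 KO (log2 fold change -2.29, limma adjusted p = 6.33e-04) and 25.2% in DDX6 KO cells (-2.11, limma adjusted p = 3.59e-04).

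The promoters are shown because the 8 transcripts were low together, and because the motifs differ between them. Windows of 300 bases, 250 before and 50 after each RefSeq start site (GRCm38.p6), were found for all 8 genes, with 3 windows for Upp1. Capitals mark matches, on either strand, to CCAAT (bound by NF-Y), AAGGTCA (ESRRB) or GGGCGG (GC box).

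H2-Eb1 (chr17:34305617-34305916, + strand): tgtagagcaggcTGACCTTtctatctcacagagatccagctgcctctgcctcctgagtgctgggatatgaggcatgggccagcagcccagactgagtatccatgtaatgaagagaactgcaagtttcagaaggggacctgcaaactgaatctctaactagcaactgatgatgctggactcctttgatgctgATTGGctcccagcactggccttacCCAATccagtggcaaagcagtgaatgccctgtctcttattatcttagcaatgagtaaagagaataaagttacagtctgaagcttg
Gtsf1l (chr2:163089552-163089851, - strand): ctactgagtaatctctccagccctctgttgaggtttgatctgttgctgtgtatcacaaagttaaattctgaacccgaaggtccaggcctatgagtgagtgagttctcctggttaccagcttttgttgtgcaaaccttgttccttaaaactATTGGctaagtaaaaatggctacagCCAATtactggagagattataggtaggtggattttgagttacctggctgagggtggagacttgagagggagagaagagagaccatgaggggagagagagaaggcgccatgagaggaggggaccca
Khdc3 (chr9:73102148-73102447, + strand): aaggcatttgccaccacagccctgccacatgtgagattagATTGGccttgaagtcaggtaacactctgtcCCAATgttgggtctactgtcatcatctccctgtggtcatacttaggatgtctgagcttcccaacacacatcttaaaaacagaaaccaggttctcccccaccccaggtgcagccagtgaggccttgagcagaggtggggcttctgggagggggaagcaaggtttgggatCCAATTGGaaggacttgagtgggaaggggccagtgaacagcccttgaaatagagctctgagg
Rims1 (chr1:22806109-22806408, - strand): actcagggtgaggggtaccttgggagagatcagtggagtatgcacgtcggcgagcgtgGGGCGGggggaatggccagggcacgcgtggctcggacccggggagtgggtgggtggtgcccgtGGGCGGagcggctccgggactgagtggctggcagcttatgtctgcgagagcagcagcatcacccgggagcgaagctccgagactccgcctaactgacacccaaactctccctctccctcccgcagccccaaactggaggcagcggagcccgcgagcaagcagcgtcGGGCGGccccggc

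CCAAT occurred in the windows of 3 of 8 members (Gtsf1l, Khdc3 and H2-Eb1) and in 37.4% of all 32851 windows. In H2-Eb1 the inverted copy from base -59 to -55 has the orientation of the Y box of class II promoters. GGGCGG occurred in 3 of 8 (Upp1, Rims1 and Slc4a5) against 35.7% of all windows, and TATAAA in Slc4a5 alone against 13.6%. AAGGTCA occurred in H2-Eb1 alone against 4.72%. No window of a member held GAGGAA (core of PU.1 and Spi-C sites, 28.3% of all windows), TTCNNNGAA (STAT, 8.30%) or CACGTG (E box, 7.15%). The start sites are those of RefSeq, and that of Gtsf1l lies at base -1746 from the 5′ end of the counted gene, while those of Khdc3, Spic and Slc4a5 lie 562, 1992 and 17547 bases inside theirs. Motifs and CpG counts of these windows hold for the RefSeq start sites only.

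CpG dinucleotides were few in part of the windows. Khdc3 and H2-Eb1 had 0, as had 5.43% of all windows, Gtsf1l had 2 and Spic 3. Rims1 had 26, and 84.5% of all windows had as many or fewer. The median of all windows was 7.

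The 3′ UTRs of the members were examined after the values were seen, because DGCR8 KO cells lack most miRNAs. The main miRNAs of ESCs share the seed AAGUGC, as in miR-294-3p, shown with bases 2 to 8 in capitals, and the capitals of the sites mark the match.

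mmu-miR-294-3p: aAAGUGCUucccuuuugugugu
Rims1 3′ UTR site: agaactgaAGCACTTggtgcactt
Spic 3′ UTR site: gtctccaaAGCACTTttcaggttc

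A match to this seed (AGCACTT or GCACTTA) was found in the 3′ UTR of 2 of 8 members and of 19.4% of 10962 tested genes with an annotated 3′ UTR. The 3′ UTRs of Upp1 and Gtsf1l had 70 and 72 bases, and those of Slc4a5, Smtnl1, Khdc3 and H2-Eb1 had 184, 219, 246 and 307. Spic had 892 and Rims1 2171. The median over tested genes was 999 bases.

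**Figure D1:**
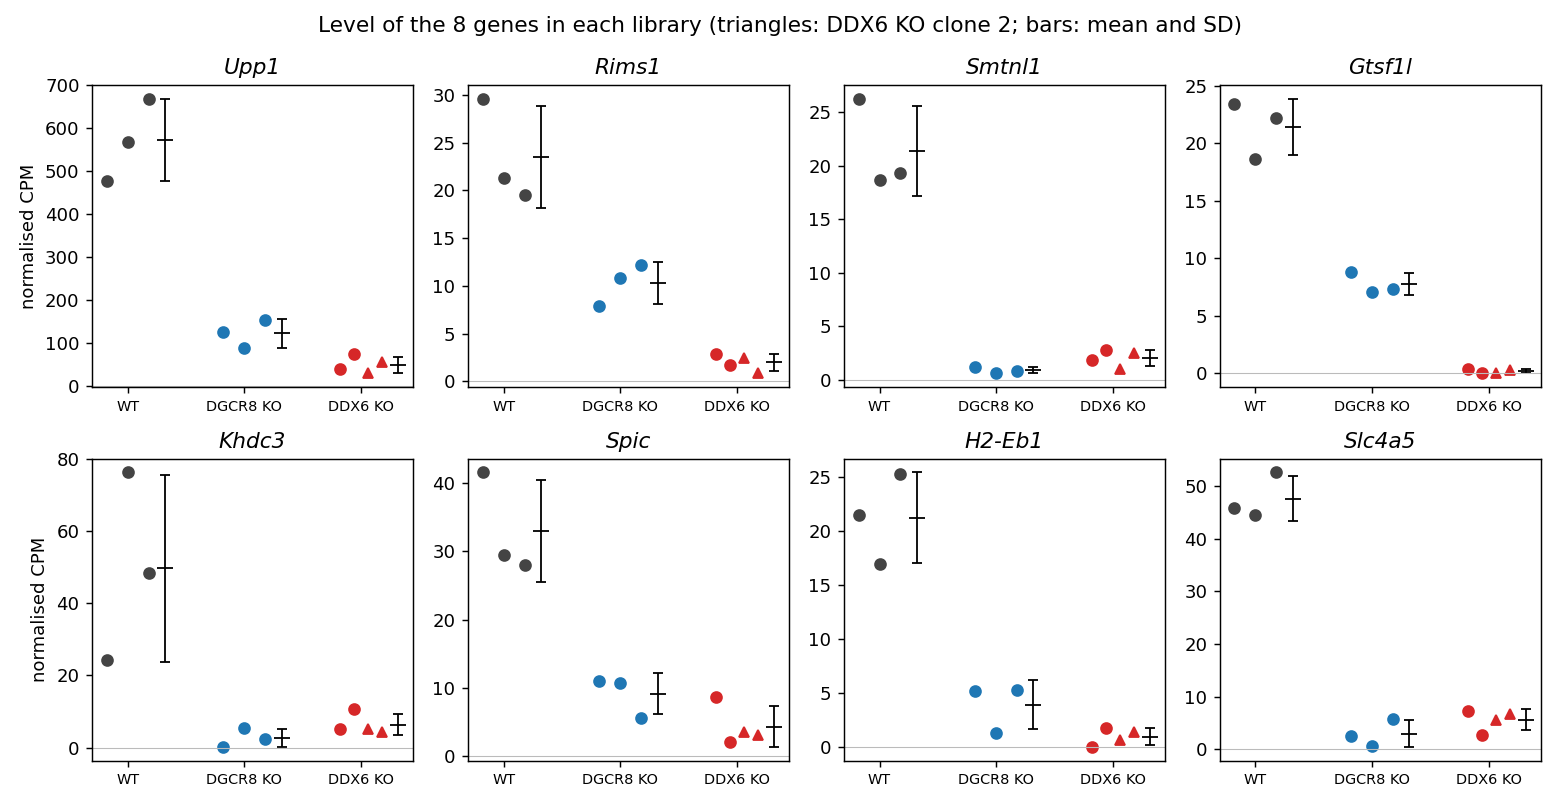
Normalised CPM of the 8 genes in each library, by group, on a linear axis for each gene. Points are libraries, with triangles for DDX6 KO clone 2, and the bars beside them give the group mean and SD. In each of the 8 panels the WT libraries lie above the libraries of both knockouts.

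All 8 genes were called lower in DGCR8 KO cells too, where 5.80% of all genes tested were called lower. No DGCR8 KO library overlapped a WT library for any of the 8, against 21.1% of all genes in that direction. This contrast shares its WT libraries with the rule, which asked for high WT levels. Smtnl1 reached 3 CPM in WT libraries only and so had to differ to be tested, and H2-Eb1 needed WT libraries to pass as well. The count of 8 is therefore no independent support. In bulk libraries, fewer cells with a transcript and less of it per cell cannot be told apart.

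Upp1 (chr11:9118103-9136170, GRCm38 as for all genes here) was the most abundant member. It stood at 477, 568 and 668 CPM in the WT libraries, at 125, 87.1 and 152 in the DGCR8 KO libraries, at 37.5 and 72.7 in clone 1 and at 28.4 and 54.0 in clone 2. The groups did not overlap, and the order was WT, DGCR8 KO, DDX6 KO. The DGCR8 KO mean of 121.3 ± 32.7 CPM (SD, n = 3) was 21.2% of the WT mean of 571 ± 95.6 (SD, n = 3). Upp1 thus fell by 2.28 on the log2 scale (SE 0.21), with a limma adjusted p of 1.75e-07. DDX6 KO cells kept 8.43%.

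Spic (chr10:88674772-88685015) had 41.6, 29.5 and 27.9 CPM in WT and 10.96, 10.8 and 5.67 in DGCR8 KO libraries. DDX6 KO libraries had 8.75 and 2.08 in clone 1 and 3.50 and 3.06 in clone 2. The first library of clone 1 lay within the DGCR8 KO range, and both knockouts lay under WT. Spic fell by 1.78 on the log2 scale in DGCR8 KO cells (SE 0.30, limma adjusted p = 1.47e-04) to 27.7% of WT, and DDX6 KO cells kept 13.2%.

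Gtsf1l (chr2:163087034-163087855, 1 exon) came nearest to absence. It had 23.4, 18.6 and 22.2 CPM in WT and 8.83, 7.09 and 7.29 in DGCR8 KO libraries, with 1, 0, 0 and 1 counts in the DDX6 KO libraries. Those 2 counts against 204 in WT give 0.775% of the WT level, with an exact 95% interval of 0.0932% to 2.84% that covers counting error only. DGCR8 KO cells kept 36.1% of WT, a change of -1.43 on the log2 scale with SE 0.24 (limma adjusted p = 1.73e-04).

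Rims1 (chr1:22286251-22805994) had 29.6, 21.4 and 19.5 CPM in WT and 7.92, 10.8 and 12.2 in DGCR8 KO libraries. The DDX6 KO libraries had 2.92 and 1.73 in clone 1 and 2.45 and 0.835 in clone 2, all under the DGCR8 KO range. It had the highest share left in DGCR8 KO cells of the 8, at 43.8%, its change on the log2 scale being -1.144 (SE 0.26, limma adjusted p = 0.00197). Without DGCR8 KO replicate 1 the fold change was -0.95 and no longer past the fold threshold.

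H2-Eb1 (chr17:34305867-34316674) had 21.5, 16.9 and 25.3 CPM in WT and 5.18, 1.35 and 5.27 in DGCR8 KO libraries. The DDX6 KO libraries held 0, 5, 2 and 5 counts, or 0.955 ± 0.768 CPM (SD, n = 4). The lowest DGCR8 KO library lay within the DDX6 KO range. DGCR8 KO cells kept 18.5% of WT (log2 fold change -2.62, SE 0.45, limma adjusted p = 1.82e-04). H2-Eb1 passed the filter only with its WT libraries, so this p-value is no independent support. Without DGCR8 KO replicate 2 the change was -1.998 and still called.

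Smtnl1, Khdc3 and Slc4a5 were lower in DGCR8 KO than in DDX6 KO cells on average, and the other 5 were lower in DDX6 KO cells. That difference between the knockouts was not tested, since the rule used the DDX6 KO values.

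Smtnl1 (chr2:84811176-84822652) had 26.3, 18.6 and 19.3 CPM in WT and 4, 2 and 2 counts in the DGCR8 KO libraries. The DDX6 KO libraries had 1.82, 2.77, 1.05 and 2.51 CPM, overlapping the DGCR8 KO range. In DGCR8 KO cells 4.21% of WT was left (log2 fold change -4.28, SE 0.52, limma adjusted p = 5.16e-06), and in DDX6 KO cells 9.52%. Smtnl1 was tested only through its WT libraries, so this p-value is no independent support.

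Slc4a5 (chr6:83219828-83304945) had 45.9, 44.4 and 52.6 CPM in WT and 2.44, 0.675 and 5.67 in DGCR8 KO libraries. The DDX6 KO libraries had 7.29, 2.77, 5.599 and 6.68 CPM, again overlapping DGCR8 KO. DGCR8 KO cells kept 6.15% of WT (log2 fold change -4.42, SE 0.49, limma adjusted p = 1.66e-06). Without DGCR8 KO replicate 2 the change was -3.70 and still called. Slc4a5 lies on chromosome 6, whose 561 tested genes had a median shift of 0.59 ± 0.06 on the log2 scale (SD, n = 4) in DDX6 KO libraries, in the direction opposite to Slc4a5.

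Khdc3 (chr9:73101836-73104438) varied most within WT, at 24.4, 76.3 and 48.4 CPM. It had 0.305, 5.40 and 2.43 CPM in DGCR8 KO libraries, and 5.10, 10.7, 5.25 and 4.45 in DDX6 KO libraries. Neither knockout reached the lowest WT library. DGCR8 KO cells kept 5.46% of WT (log2 fold change -4.73, SE 0.80, limma adjusted p = 1.61e-04) and DDX6 KO cells 12.9%. The change in DGCR8 KO cells was -3.58 without DGCR8 KO replicate 1 and -5.55 without replicate 2, called in either case. Exons of Khdc3 overlap exons of Gm20509 on the same strand, by 327 bases in the longest overlap of a pair of exons. Gm20509 has no counts, so reads there may be missing from the count of Khdc3.

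**Figure D2:**
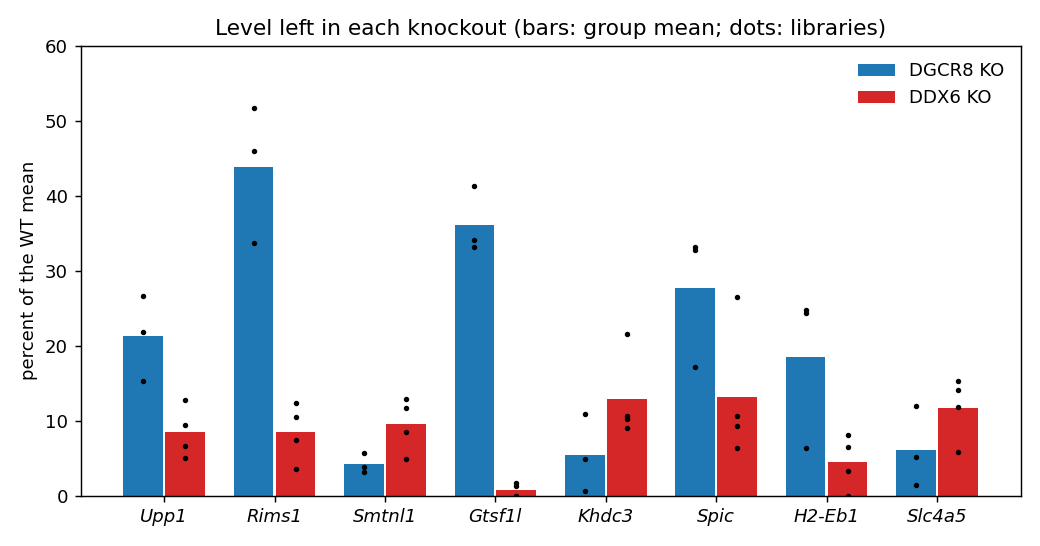
Level left in each knockout as a percent of the WT mean, for each gene, with bars for the group mean and dots for libraries. With DGCR8 KO given first, Rims1 keeps 43.8% and 8.44%, and Smtnl1 keeps 4.21% and 9.52%.

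Between the 2 DDX6 KO clones, none of the 8 genes was called by limma, where 0.0428% of all genes tested were called lower in clone 2 and none higher (5 genes by limma and 6 by edgeR or DESeq2, with 284 at an unadjusted limma p under 0.05). Adjusted p-values were 0.9998 for all 8 by limma. The rule chose the members as low over both clones together. Smtnl1, Gtsf1l and H2-Eb1 reached 3 CPM in 0 DDX6 KO libraries, and Rims1 in 1. With so few counts and 2 libraries per clone the test could hardly call such genes, so it does not show that the clones agree. The mean share of WT ran from 0.851% for Gtsf1l to 16.4% for Spic in clone 1 and from 0.650% to 12.9% (Slc4a5) in clone 2. Ddx6 itself differed between clones by -2.18 on the log2 scale, clone 2 being lower.

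Over the 10 libraries, the pairs of members correlated between 0.36 (Gtsf1l and Khdc3) and 0.96 (Upp1 and H2-Eb1) on the log2 scale, as a description of libraries that share their groups. The tested genes most like each member, with a mean of at least 10 CPM, were Ndufa7 for Upp1 (Pearson r = 0.98), B4galt6 for Rims1 (0.98), Klhl13 for Smtnl1 (0.97) and Dhx16 for Gtsf1l (0.99). They were Srp19 for Khdc3 (0.98), Gm7789 for Spic (0.97), Gm11942 for H2-Eb1 (0.99) and Ywhab for Slc4a5 (0.98). Levels differed from those of the members, as Dhx16 had 169.5 CPM in WT, 135.9 in cells without DGCR8 and 89.3 in those without DDX6.

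Of the 16 tested genes nearest to the members, 2 were lower and 3 higher in DDX6 KO cells, and 3 were lower and 2 higher in DGCR8 KO cells, at a limma adjusted p under 0.05. Over all genes tested the shares at that threshold were 16.6% lower and 17.9% higher, and 16.5% and 19.9%, so the counts lie near the background and are no result about neighbours. Mybl2, a cell cycle transcription factor 2.3 kb from Gtsf1l, fell from 237.8 ± 23.2 to 86.0 ± 15.6 CPM (log2 fold change -1.48, limma adjusted p = 2.32e-07), and was not past the threshold in DGCR8 KO cells (0.26, limma adjusted p = 0.109). Notch4, 247.6 kb from H2-Eb1, fell by 2.07 on the log2 scale (limma adjusted p = 0.00241). Sycp3, a meiotic chromosome axis gene 201.5 kb from Spic, rose by 1.19 in DDX6 KO cells (limma adjusted p = 0.00398) but was not past the threshold without WT replicate 3. Rab27a, 4.2 kb from Khdc3, rose by 1.94 in DGCR8 KO (limma adjusted p = 1.52e-06) and 0.84 in DDX6 KO cells (limma adjusted p = 0.00652). Mthfd2, a mitochondrial one-carbon enzyme 0.7 kb from Slc4a5, fell by 1.19 in DGCR8 KO (limma adjusted p = 1.15e-05) and rose by 0.49 in DDX6 KO cells (limma adjusted p = 0.00859). The latter is below the median shift of 0.59 of the tested genes of its chromosome 6. With clone 2 alone, the DDX6 KO changes of Notch4 and Mthfd2 no longer passed.

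**Figure D3:**
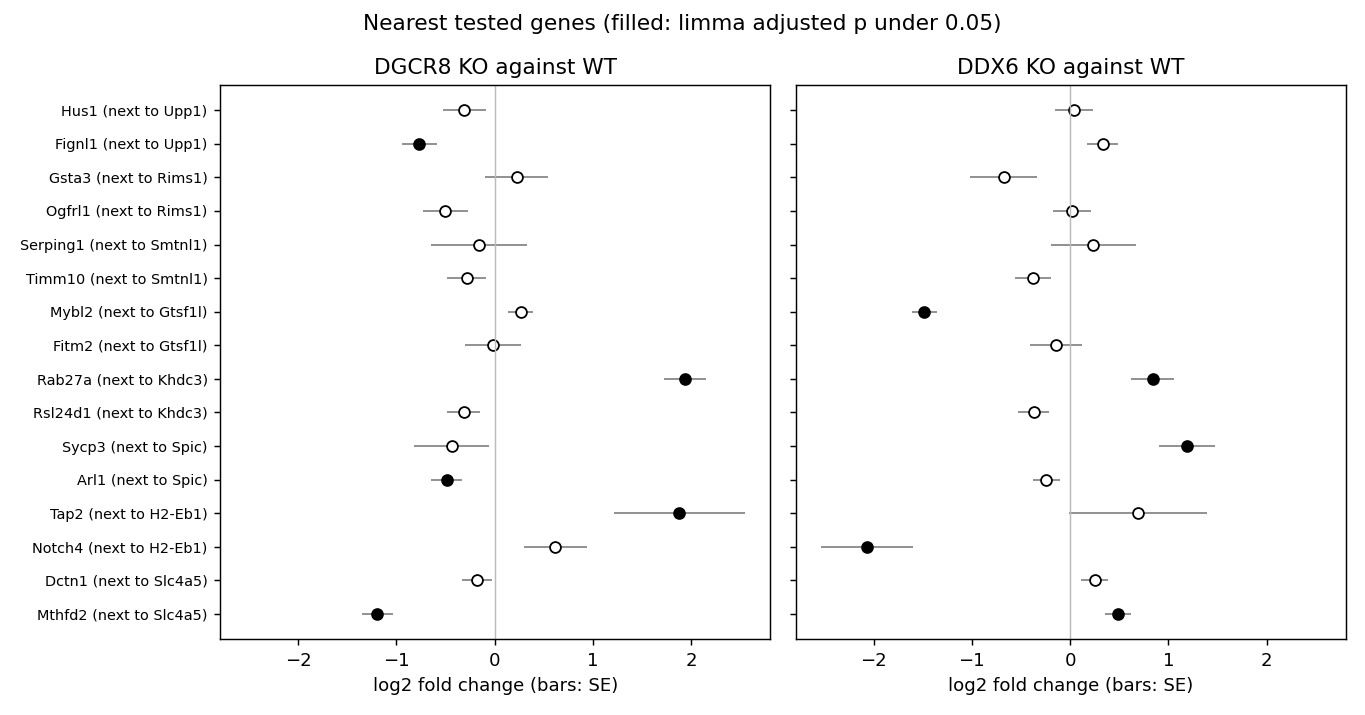
Log2 fold change of the nearest tested gene on either side of each member in both knockouts, with bars for the SE and filled points for limma adjusted p under 0.05. Mybl2 and Notch4 lie low in DDX6 KO cells, and Rab27a lies high in both.

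The other genes of each pathway were read from lists, with a gene counted as higher or lower at an adjusted p under 0.05 alone. In DGCR8 KO cells 16.5% of all genes tested were lower and 19.9% higher by that rule, and in DDX6 KO cells 16.6% and 17.9%. Genes that reached the filter only through the knockout in which they were high had to be higher there. Rimbp2 was such a gene for DGCR8 KO cells. For DDX6 KO cells these genes were Unc13a, Stx1a, Tagln, Acta2 and Slc40a1, and 4 genes of the piRNA list. Rims4 needed its WT libraries to pass the filter. Slc4a3 reached the filter in libraries of both knockouts and in no WT library. Counts and medians that hold them support nothing. The median log2 fold change of all genes tested was 0.0043 and 0.02.

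In the pyrimidine list of Upp1, 6 of 18 tested genes were lower and 1 higher in DGCR8 KO cells (median -0.19), and 6 lower and 4 higher in DDX6 KO cells (median -0.03). Dut, which removes dUTP, fell in both, by 1.02 (limma adjusted p = 1.68e-06) and 1.27 on the log2 scale (limma adjusted p = 1.34e-07). Uckl1 rose in both, by 0.86 (limma adjusted p = 0.0346) and 1.17 (limma adjusted p = 0.00343). In the presynaptic list of Rims1, 3 of 15 were lower and 3 higher in DGCR8 KO (median -0.05), and 1 lower and 3 higher in DDX6 KO cells (median 0.12). Rims3, a paralog, fell by 1.57 in DGCR8 KO cells (limma adjusted p = 0.0018), and Rims2, another paralog named after its values were seen, rose by 0.85 (limma adjusted p = 0.00358). Rimbp2, which binds RIM proteins, was tested only through its DGCR8 KO libraries, with 0.346 CPM in WT and 6.09 in DGCR8 KO cells. In the smoothelin and smooth muscle list of Smtnl1, 6 of 12 were lower and 1 higher in DGCR8 KO (median -0.215), and 2 lower and 3 higher in DDX6 KO cells (median 0.05). Its paralog Smtnl2 fell by 0.94 (limma adjusted p = 2.74e-04) in DGCR8 KO cells and by 1.24 in DDX6 KO cells (limma adjusted p = 1.74e-05). Cald1 (caldesmon) fell by 0.87 in DGCR8 KO (limma adjusted p = 6.64e-04) and rose by 2.04 in DDX6 KO cells (limma adjusted p = 1.32e-08).

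In the piRNA list of Gtsf1l, 12 of 19 genes were not tested, Gtsf1 among them, and 4 of the 7 tested genes (Piwil1, Mael, Mov10l1 and Tdrkh) reached the filter only through DDX6 KO libraries, in which they were high. These 4 had to be higher there to be tested, so the count of 6 higher and 1 lower in DDX6 KO cells says nothing of the list. Of the other 3, Piwil2, which binds piRNAs, rose from 10.02 ± 3.12 CPM (SD, n = 3) in WT to 51.0 ± 6.87 (SD, n = 4) in DDX6 KO cells (log2 fold change 2.34, limma adjusted p = 6.48e-07), and Ddx4 (Vasa) rose by 2.02 (limma adjusted p = 6.11e-06). Tdrd12, a Tudor-domain piRNA factor named after its values were seen, fell by 1.10 (limma adjusted p = 1.10e-05). In DGCR8 KO cells 1 of 7 was higher and 0 lower (median -0.15). In the list of Khdc3, 2 of 5 were higher in DGCR8 KO (median 0.38) and 2 lower in DDX6 KO cells (median -0.37), with Ooep, a partner of Khdc3 in the maternal complex, lower by 0.90 in DDX6 KO cells (limma adjusted p = 0.00662), though not past the threshold with clone 1 alone.

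In the Spi and one-carbon list of Spic, 5 of 16 were lower and 5 higher in DGCR8 KO (median 0.155), and 4 lower and 2 higher in DDX6 KO cells (median -0.16). Dmgdh and Bhmt2, enzymes of one-carbon metabolism, rose in DGCR8 KO cells by 2.99 (limma adjusted p = 2.79e-06) and 2.38 (limma adjusted p = 5.66e-06), while Hmox1, of heme breakdown, fell by 1.91 (limma adjusted p = 2.02e-04). In DDX6 KO cells none of these passed. The changes there were -0.27 for Dmgdh (limma adjusted p = 0.671), 0.08 for Bhmt2 (limma adjusted p = 0.886) and -0.54 for Hmox1 (limma adjusted p = 0.0806). The iron exporter Slc40a1 had 0.261 CPM in WT and 2.37 without DGCR8. It had 8.40 CPM without DDX6 and was tested only through those libraries. In the class II list of H2-Eb1, 2 of 8 were lower and 3 higher in DGCR8 KO (median 0.06), and 3 lower and 1 higher in DDX6 KO cells (median -0.02). Apart from H2-DMb1 the tested genes were regulators, so these medians say little of the class II genes themselves. Of class II genes not tested, H2-Ab1 had 21, 3 and 4 counts in all over the WT, DGCR8 KO and DDX6 KO libraries. H2-Aa had 7, 2 and 1, H2-DMa 12, 8 and 2, H2-DMb2 0, 0 and 1, and H2-Oa 1, 6 and 11. H2-Eb2, H2-Ea-ps and H2-Ob had none. Ciita had 5, 2 and 4 counts in all over the WT, DGCR8 KO and DDX6 KO libraries and was not tested, and Rfx5 rose by 1.23 (limma adjusted p = 2.98e-05) in DGCR8 KO cells. H2-DMb1, of peptide loading, fell by 2.34 in DDX6 KO cells (limma adjusted p = 0.0120), but not past the threshold without the second library of clone 2. In DGCR8 KO cells it was higher by 1.18, at 15.97 against 6.50 CPM in WT (limma adjusted p = 0.0328), which no longer passed by limma-trend, without the filter, or without WT replicate 2 or 3 or DGCR8 KO replicate 1 or 3. In the bicarbonate and pH list of Slc4a5, 0 of 9 were lower and 3 higher in DGCR8 KO (median 0.50), and 3 lower and 4 higher in DDX6 KO cells (median 0.22). Slc4a3 rose in DDX6 KO cells by 1.89 (limma adjusted p = 0.00408), from 1.96 CPM in WT to 7.06. It was tested only through libraries of the knockouts, in which it was high, so this p-value is no independent support. Among DNA methylation enzymes, 2 of 9 were lower and 2 higher in DGCR8 KO (median 0.235), and 3 and 3 in DDX6 KO cells (median -0.01). The de novo methyltransferase Dnmt3b changed by -0.80 in DGCR8 KO (limma adjusted p = 0.00172) and -1.35 in DDX6 KO cells (limma adjusted p = 1.33e-05). Dnmt3a rose by 0.50 (limma adjusted p = 0.0337) and 0.60 (limma adjusted p = 0.00898). Tet3 had the largest change of the list in DDX6 KO cells, a rise of 1.64 (limma adjusted p = 3.16e-06).

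**Figure D4:**
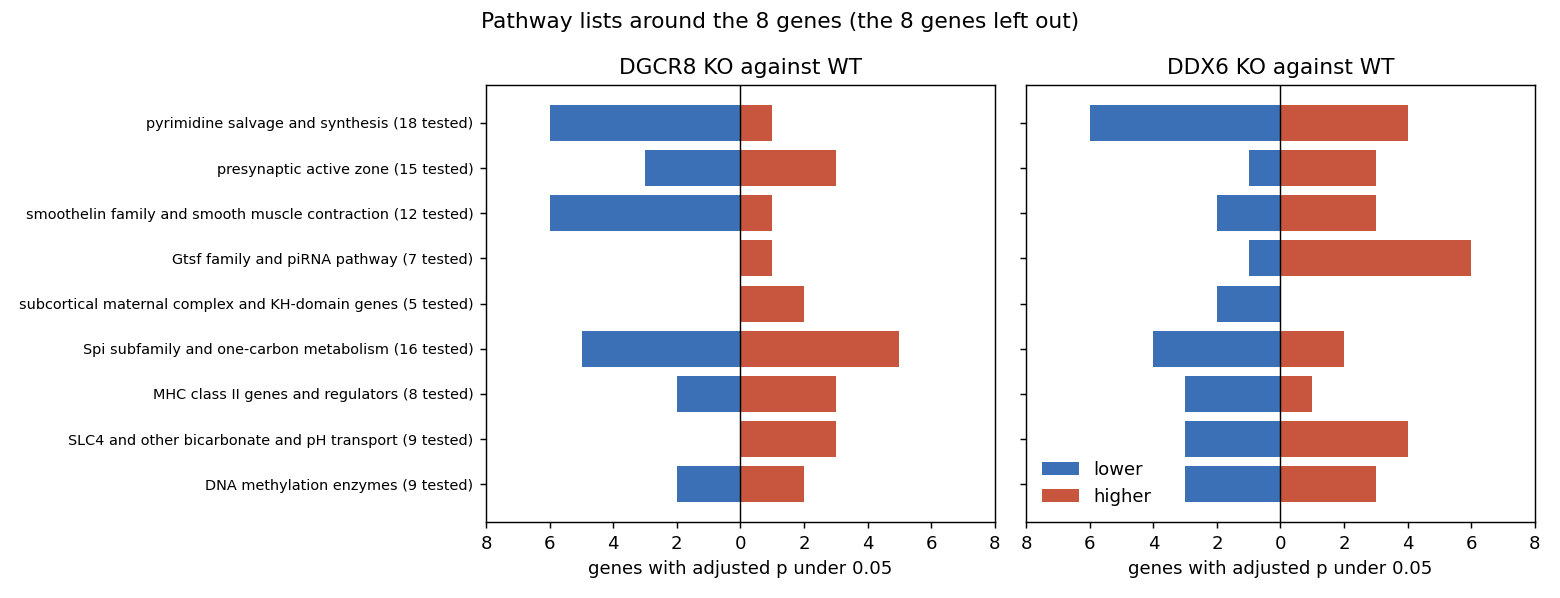
Number of genes of each pathway list, the 8 members left out, that were lower (left bars) or higher (right bars) at limma adjusted p under 0.05 in each knockout. Of the 6 higher genes of the piRNA list in DDX6 KO cells, 4 reached the filter only through those libraries.

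Markers of other cells were followed because H2-Eb1 and Spic are known from immune cells and Gtsf1l and Khdc3 from germ cells. Of 12 immune markers, 5 had no count in any library, Ptprc among them, and 9 had at most 3 counts in each. Laptm5 held nearly all of the sum, which was 142.3 to 179.9 CPM in WT, 224.5 to 281.6 in DGCR8 KO and 176.4 to 232.8 in DDX6 KO libraries. Germ cell and oocyte markers summed to 58.8 to 97.3, 49.8 to 80.7 and 147.7 to 171.5 CPM. Fibroblast markers reached 4.66 to 4.78, 3.24 to 6.09 and 12.1 to 17.9 CPM, primitive endoderm markers 8.65 to 13.4, 4.05 to 6.41 and 17.3 to 24.4, and 2-cell-like markers 0.478 to 4.07, 2.03 to 10.96 and 8.30 to 20.04. Few genes carried these 3 sums, as 2 of 8 fibroblast, 1 of 7 primitive endoderm and 2 of 7 2-cell-like markers passed the filter. From WT to DDX6 KO cells, Fbn1 went from 0.907 to 7.18 CPM and Col1a1 from 1.87 to 4.04. Col1a2 (0.925 and 0.869) and Col3a1 (0.529 and 0.610) hardly moved. The part of these other cells in the levels of the 8 genes was not tested.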

How the data were processed

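QuantSeq 3′ FWD libraries of 10 mouse ESC samples were read from the deposited counts. The deposited counts are whole numbers of reads per gene: the authors trimmed reads with cutadapt 1.14, aligned them with STAR 2.5.3a to mm10 and counted unique sense-strand reads with featureCounts 1.5.3, and no molecular identifiers are stated, so intervals and floors cover counting error only. Of 51467 genes, 51274 were paired with a symbol by identifier, and 92 spike-in rows (1.10% to 2.36% of counts) were set apart. Libraries were grouped by their titles.

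Counts were scaled by TMM in edgeR 4.0.16 and fitted with voom in limma 3.58.1 (R 4.3.3), all 10 libraries in 1 model with group as its only term. Clone 2 was set against clone 1 in a separate model. Genes with 3 CPM in 3 libraries were tested and called at a two-sided Benjamini-Hochberg adjusted p under 0.05 and a log2 fold change beyond 1. Correlations used log2 CPM with 0.5 CPM added. The fit was tested on simulated data. Alternatives were edgeR's quasi-likelihood test, DESeq2 1.42.0, limma-trend, other scalings, no filter, other samples and each library left out. The members and lists were chosen with earlier results of these data known. Named genes were the members, both targeted genes, nearest neighbours, genes most like each member, non-members within the rule, and up to 4 genes per list and contrast by size of change. Promoters came from RefSeq (GRCm38.p6), coordinates and 3′ UTRs from GENCODE M21 (longest coding transcript), a later release than the one counted. Same-numbered WT and DGCR8 KO libraries deviated together (correlations 0.138, 0.260 and 0.274, other pairs -0.249 to -0.020); the pairing comes from the numbers in the titles.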

Additional observations from a re-analysis of the deposited data

Results flagged for a closer look

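Khdc3 stood at 10.7 CPM in the second library of DDX6 KO clone 1, against 4.45 to 5.25 in the other 3 DDX6 KO libraries. The gap to the nearest library was 0.873 of the range of the 4, above Dixon's 95% critical value. Chance alone passes that value in about 1 in 20 groups, and 10 genes were examined. Without that library the log2 fold change of Khdc3 in DDX6 KO cells against WT was -3.22, against -2.96 with it, given as a description.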

How the results depend on the processing

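The counts of genes called kept within 1.5 times of 1721 in DGCR8 KO cells and of 1310 in DDX6 KO cells under every alternative run, including edgeR, DESeq2, limma-trend, RLE size factors, total counts, no filter and each clone alone. All 8 genes stayed called lower in DGCR8 KO cells under each of these that changes no libraries. With the replicate block (WT and DGCR8 KO libraries only) 1587 genes were called, against 1570 without it, and all 8 members stayed called, so the paired fit changed no call of a member. Leaving out 1 library gave 7 to 8 members called. Without any 1 WT library the missing member was Smtnl1, which then failed the filter and was not tested. On the genes of the full filter, an alternative added after seeing the data, Smtnl1 stayed called without each WT library (log2 fold change -4.36 to -4.17). Smtnl1 passes that filter through WT libraries only, so this is no independent support. Without DGCR8 KO replicate 1 the missing member was Rims1 (-0.95, limma adjusted p = 0.0209). Between clones, leaving out 1 library gave 3 to 5 genes called against 5 (3 without the second library of clone 1 or either library of clone 2), and 2 to 5 on the genes of the full filter, with no member among them. No result changed sign under any alternative run. Outside the main results, 4129 comparisons with an alternative stayed the same, 204 no longer passed their threshold and 218 moved (for a count, by over 1.5 times). Khdc3 (-5.55 to -3.58), Slc4a5 and H2-Eb1 moved by over 1.5 times in fold when 1 DGCR8 KO library was left out. Members with few counts were bounded most weakly, as Gtsf1l in DDX6 KO cells moved from -7.02 (DESeq2) to -4.77 (limma-trend). TATAAA and AAGGTCA were found in 0 of 8 members in the last 150 bases of the windows, against 1 each in 300.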
